A study of Rattus norvegicus with 6 samples.

Results

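A set of 10 genes of antioxidant defence was followed in neuronal progenitor cells given corticosterone. They are the glutathione peroxidases Gpx1, Gpx3, Gpx4, Gpx7 and Gpx8, the superoxide dismutases Sod1 and Sod2, catalase (Cat), the quinone reductase Nqo1 and the inducible heme oxygenase Hmox1. They were taken by name: every probe set whose platform annotation gave 1 of these 10 symbols was used, which gave 11 of the 31042 probe sets that were not controls. Gpx4 had 2 probe sets and each of the other genes had 1. The cells came from the cerebral cortex of rat embryos (E15.5), were grown on fibronectin with 20 ng/ml basic fibroblast growth factor, a mitogen for progenitors, and were exposed for 48 h. One group received 1 µM corticosterone, the main glucocorticoid of the rat, and the other its solvent dimethyl sulfoxide (vehicle). The 3 samples of each group belonged to couples 1, 2 and 3, each of 1 corticosterone and 1 vehicle sample, and each sample was hybridised to 1 Affymetrix array. Whether a couple stands for its own culture or litter is not stated, so p-values measure only the spread between these samples, which may be technical.

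Superoxide, made mainly as a by-product of respiration, is turned into hydrogen peroxide by superoxide dismutases. Catalase and the glutathione peroxidases then reduce the peroxide, and the classical glutathione peroxidases take the electrons for this from glutathione. Nqo1 and Hmox1 belong to the genes that the transcription factor Nrf2 (gene Nfe2l2) switches on under oxidative or electrophilic stress, and Hmox1 also answers to heme. Membranes of the brain are rich in lipids that oxidise easily, and much of its defence runs through glutathione.

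With corticosterone 7 of the 10 genes rose and none fell. Those that rose were Gpx1, Gpx3, Gpx7, Gpx8, Cat, Nqo1 and Hmox1, and those that did not pass were Gpx4, Sod1 and Sod2. Here a gene passed at a limma adjusted p under 0.05 over the 18625 probe sets tested, with the couple as a term. Over all of these, 9.40% passed as higher and 6.45% as lower, against 7 and 0 of the 10 probe sets tested here. The 11th, the second of Gpx4, lay under the filter on low signals. The fold changes of the 7 ran from 0.25 to 1.51 on the log2 scale, and all but that of Nqo1 were 0.55 or less. The median over the 10 probe sets was 0.35, against −0.004 over all tested. In 4 of the 10 every corticosterone array lay above every vehicle array, which was so for 12.5% of all probe sets tested. The genes were chosen with earlier results of these data known, so these comparisons with all probe sets are only a description.

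**Figure D1:**
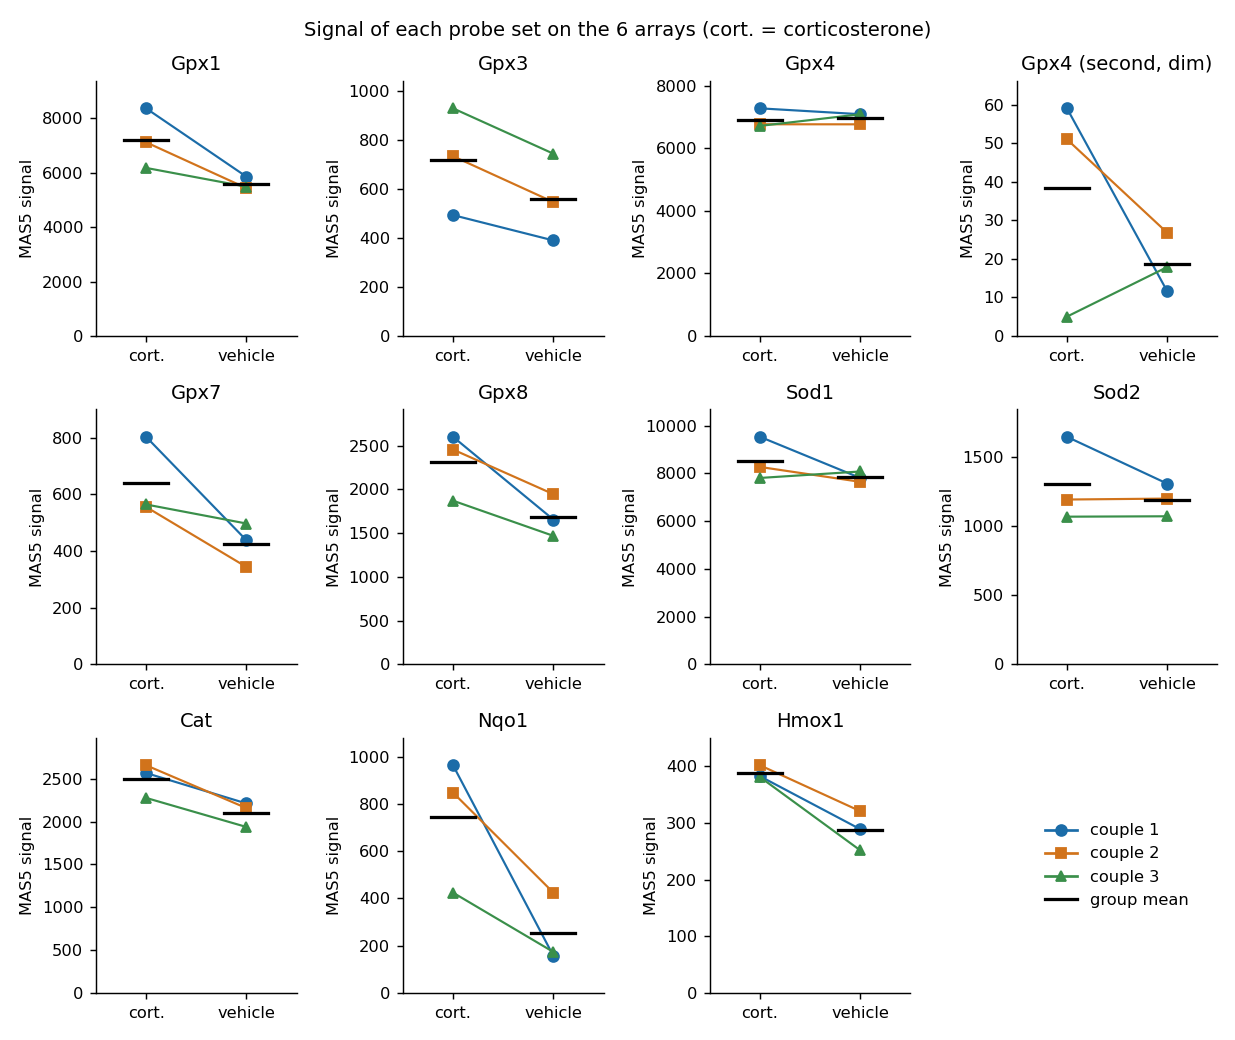
MAS5 signal (linear, arbitrary units, each axis from 0) of the 11 probe sets, with corticosterone at the left and vehicle at the right of each panel; lines join the samples of a couple and black bars are group means. Lines slope up towards corticosterone in all 3 couples for Gpx1, Gpx3, Gpx7, Gpx8, Cat, Nqo1 and Hmox1, and are mixed for Gpx4, Sod1 and Sod2.

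Regulatory sequence next to the gene start is shown for 3 of the genes, because several of them rose together. RefSeq promoter windows of assembly GRCr8 matched 8 of the 10 genes (Gpx8 and Hmox1 were not matched), 5 of them among the 7 that rose. The 250 bases before the start were searched on both strands for 4 motifs, written here 5′ to 3′. The first was the antioxidant response element core TGACNNNGC, to which Nrf2 binds with its small Maf partners. The second was the glucocorticoid response element, to which the hormone's receptor binds, as the half-sites AGAACA and TGTTC with any 3 bases between them. The GC box GGGCGG and the TATA box TATAAA were the third and the fourth. Capitals mark every match in the windows of Nqo1 (the largest rise; chr19:52220268-52220517, minus strand), Cat (which rose, with none of the motifs; chr3:110329527-110329776, minus strand) and Sod2 (which did not pass; chr1:50050169-50050418, minus strand).
Nqo1: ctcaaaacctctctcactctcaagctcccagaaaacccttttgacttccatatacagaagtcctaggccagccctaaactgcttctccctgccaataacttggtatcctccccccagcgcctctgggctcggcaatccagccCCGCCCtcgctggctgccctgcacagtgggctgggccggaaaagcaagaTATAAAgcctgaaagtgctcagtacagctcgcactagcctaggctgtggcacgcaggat
Cat: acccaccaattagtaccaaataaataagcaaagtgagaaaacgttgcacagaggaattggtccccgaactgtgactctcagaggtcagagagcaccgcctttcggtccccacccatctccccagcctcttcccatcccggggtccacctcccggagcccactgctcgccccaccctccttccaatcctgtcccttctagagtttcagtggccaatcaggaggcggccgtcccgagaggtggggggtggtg
Sod2: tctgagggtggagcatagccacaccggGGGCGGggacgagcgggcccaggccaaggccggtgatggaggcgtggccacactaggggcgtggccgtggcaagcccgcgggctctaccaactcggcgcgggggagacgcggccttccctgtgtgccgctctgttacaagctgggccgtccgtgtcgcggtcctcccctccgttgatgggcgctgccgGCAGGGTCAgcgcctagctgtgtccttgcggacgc
The Nqo1 window held a GC box and a TATA box. The antioxidant response element core was found in 1 of the 10 windows of these genes (Gpx4 has 3), that of Sod2, starting 35 bases before the start, and in 10.1% of all 33469 windows. The glucocorticoid palindrome was in 0 of the 10 and in 0.0359% of all windows, too rare for its absence from 10 windows to say anything. A GC box was present in 8 of the 10 windows, with every gene but Cat among them (7 of 8 genes), against 30.5% of all windows. Of these 8 windows 2 were overlapping ones of Gpx4 that held the same boxes. A TATA box was present in 2 windows, those of Nqo1 and Sod1, against 12.9%. The GC content of the windows shown was 56.4% for Nqo1, 58.8% for Cat and 71.6% for Sod2. A match is only a run of letters, and other parts of the genes were not searched.

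Among the glutathione peroxidases, 4 of 5 rose and Gpx4 did not. Gpx1, the cytosolic and mitochondrial enzyme that carries selenocysteine in its active site, had signals of 8370.5, 7123 and 6180.0 with corticosterone in couples 1, 2 and 3, against 5859, 5437 and 5489.8 with vehicle. All corticosterone arrays lay above all vehicle arrays, and the gap was widest in couple 1. The log2 fold change was 0.36 ± 0.07 (SE; limma adjusted p = 0.0057), or 1.28-fold.

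Gpx3, the secreted selenoenzyme known from plasma, had signals of 493, 733 and 928 with corticosterone and 389.5, 546 and 743 with vehicle. The groups overlapped, because the couples stood far apart from each other in both groups, couple 3 highest and couple 1 lowest. Within couples the differences were close, at 0.32, 0.41 and 0.31 on the log2 scale, and the fitted change was 0.34 ± 0.09 (SE; limma adjusted p = 0.025). Its call therefore rests on the comparison within couples, and without the couple as a term the adjusted p was 0.59.

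Gpx7 and Gpx8 are peroxidases of the endoplasmic reticulum that carry cysteine in place of selenocysteine and work with protein disulfide isomerases in protein folding. Gpx7 had signals of 803, 555 and 564 with corticosterone and 438, 344 and 497 with vehicle. The groups did not overlap, and the fold was 1.83, 1.62 and 1.14 in couples 1, 2 and 3. The log2 fold change was 0.55 ± 0.13 (SE; limma adjusted p = 0.012), the largest among the 5 peroxidases in this fit. Gpx8 had signals of 2601, 2456 and 1871 with corticosterone and 1656, 1946 and 1469 with vehicle. Here couple 3 with corticosterone lay below couple 2 with vehicle, but each couple rose. Its log2 fold change was 0.44 ± 0.08 (SE; limma adjusted p = 0.0036).

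Gpx4, the selenoenzyme that reduces lipid peroxides within membranes and thereby holds off ferroptosis, had signals of 7283, 6774 and 6722 with corticosterone and 7096, 6772 and 7093 with vehicle. The groups overlapped and the couples went both ways. The log2 fold change was −0.01 (95% interval −0.14 to 0.11; limma adjusted p = 0.91), so the interval holds no change as large as the estimates for Gpx1, Gpx3, Gpx7 or Gpx8. It was 0.02 after quantile normalization. The second Gpx4 probe set was dim, with 59.1, 51.0 and 5.02 under corticosterone and 11.6, 26.8 and 17.9 under vehicle. On 3 of the 6 arrays it lay at or below the background signal of 22.8, and it was not tested.

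**Figure D2:**
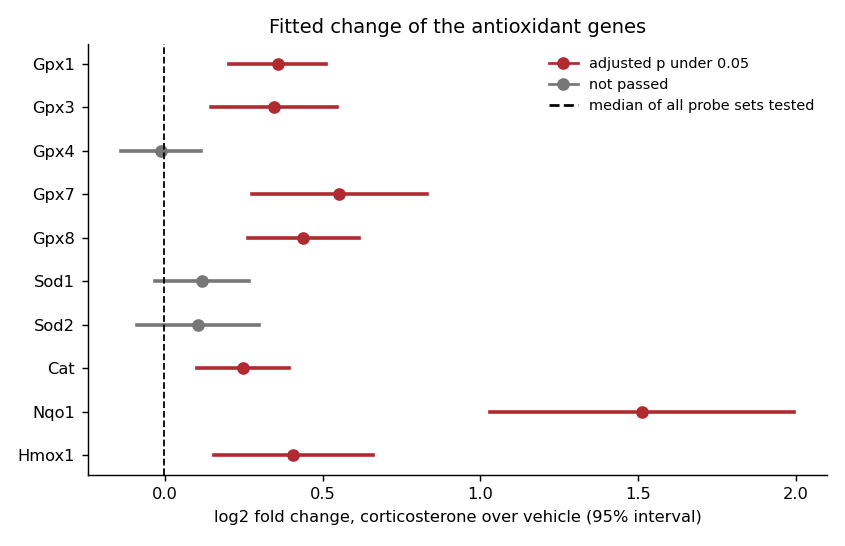
Fitted log2 fold change (corticosterone over vehicle, horizontal axis) of the 10 probe sets tested, with 95% limma intervals; red marks an adjusted p under 0.05, grey none, and the dashed line the median of all probe sets tested. Nqo1 stands apart at 1.51, the other 6 that passed lie between 0.25 and 0.55, and the intervals of Gpx4, Sod1 and Sod2 include 0.

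Neither superoxide dismutase passed, while catalase did. Sod1, the copper and zinc enzyme of the cytosol, had signals of 9532, 8269.8 and 7809.7 with corticosterone and 7808, 7647 and 8080.2 with vehicle. It was higher in couples 1 and 2 and lower in couple 3, with a log2 fold change of 0.12 (95% interval −0.03 to 0.27; limma adjusted p = 0.29). Sod2, the manganese enzyme of the mitochondrial matrix, had 1648, 1194 and 1069.9 with corticosterone and 1309, 1201 and 1073 with vehicle. Couple 1 alone was higher, and in couples 2 and 3 the difference was −0.01 and −0.004 on the log2 scale. The fitted change was 0.10 (95% interval −0.09 to 0.30; limma adjusted p = 0.47), which turned to −0.01 without couple 1 and to −0.002 with each array centred on its median.

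Cat, which breaks down hydrogen peroxide in peroxisomes, had signals of 2568, 2658 and 2278 with corticosterone and 2212, 2159 and 1938 with vehicle. The groups did not overlap, and the fold was 1.16, 1.23 and 1.18 in the 3 couples, an even but small rise. The log2 fold change was 0.25 ± 0.07 (SE; limma adjusted p = 0.028), the smallest among the 7 genes that passed.

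Nqo1, a flavoenzyme that reduces quinones without releasing radicals, changed most. Its signals were 964, 848 and 424.72 with corticosterone and 157, 424.78 and 173.5 with vehicle. The lowest corticosterone array, of couple 3, lay just under the highest vehicle array, of couple 2, so the groups overlapped narrowly. Each couple rose, by 6.14-fold, 1.997-fold and 2.45-fold. The log2 fold change was 1.51 ± 0.22 (SE; limma adjusted p = 9.1e-04), and 0.601% of all probe sets tested had a larger one. Without couple 1 it was 1.06 and without couple 2 it was 1.79, and it passed in both cases.

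Hmox1, which opens the heme ring to give biliverdin, iron and carbon monoxide, had signals of 382, 401 and 381 with corticosterone and 289, 320.4 and 251 with vehicle. The corticosterone arrays lay close together and above all vehicle arrays. The log2 fold change was 0.41 ± 0.11 (SE; limma adjusted p = 0.033). Of the 7 calls this one sat closest to the threshold.

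**Figure D3:**
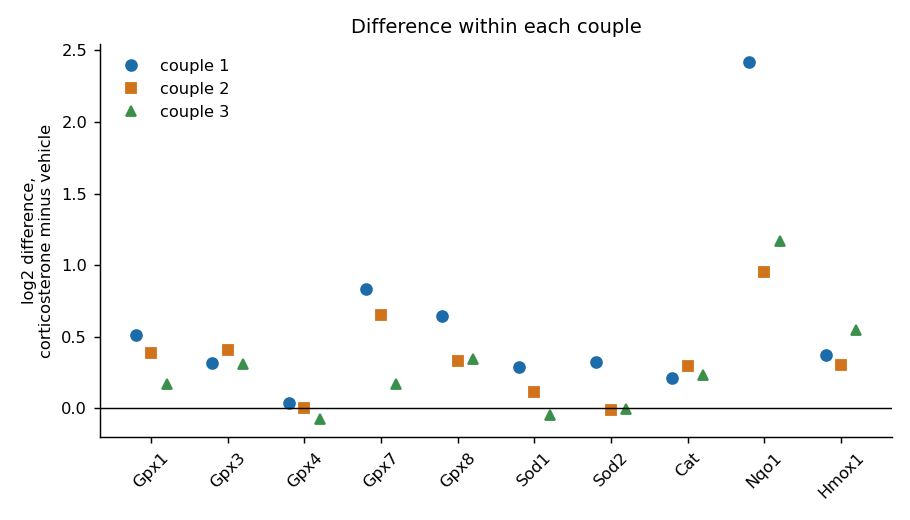
Difference of log2(signal + pseudocount) between the corticosterone and the vehicle sample of each couple (vertical axis) for the 10 probe sets tested; circles, squares and triangles are couples 1, 2 and 3. Couple 1 lay highest for Gpx1, Gpx4, Gpx7, Gpx8, Sod1, Sod2 and Nqo1, while the 3 couples lay close together for Gpx3 and Cat.

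The couples differed in how far these genes moved. The median difference over the 10 probe sets was 0.35, 0.32 and 0.20 on the log2 scale in couples 1, 2 and 3, and 10, 9 and 7 of the 10 were higher with corticosterone. Over all probe sets tested the medians were 0.003, −0.007 and 0.0002, and the spread of the differences (SD) was 0.46, 0.40 and 0.33. Of the 7 genes that passed, 4 had their largest rise in couple 1, 2 in couple 2 and 1, Hmox1, in couple 3. Among all 1751 probe sets that passed as higher these shares were 56.3%, 31.3% and 12.4%. Couple 1 also had the lowest ratio of 3′ to 5′ Actb signal, a sign of RNA integrity, at 1.76 with corticosterone and 1.55 with vehicle, against 2.0 to 2.03 with corticosterone and 2.11 to 2.12 with vehicle in the other couples. The part of RNA integrity in the differences was not tested.

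The calls depended on the pairing and on each couple. Without the couple as a term 0 of the 10 passed in limma, with 6 at an unadjusted p under 0.05 and adjusted p-values from 0.087 for Nqo1 to 0.59 for Gpx3 among the 7. Leaving out couple 1 left Gpx1, Gpx8 and Nqo1 past the threshold, leaving out couple 2 left Gpx8 and Nqo1, and leaving out couple 3 left Gpx1, Gpx7, Gpx8 and Nqo1. In the fit with no trend of variance on intensity Nqo1 alone passed (limma adjusted p = 0.046). With each array centred on its median, which moved the median of all probe sets tested to −0.11, Cat, Gpx3 and Hmox1 did not pass (limma adjusted p = 0.20, 0.10 and 0.096), and all 7 stayed above 0. That centring also turned the split of all calls, of which 30.4% were higher, against 59.3% as reported.

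**Figure D4:**
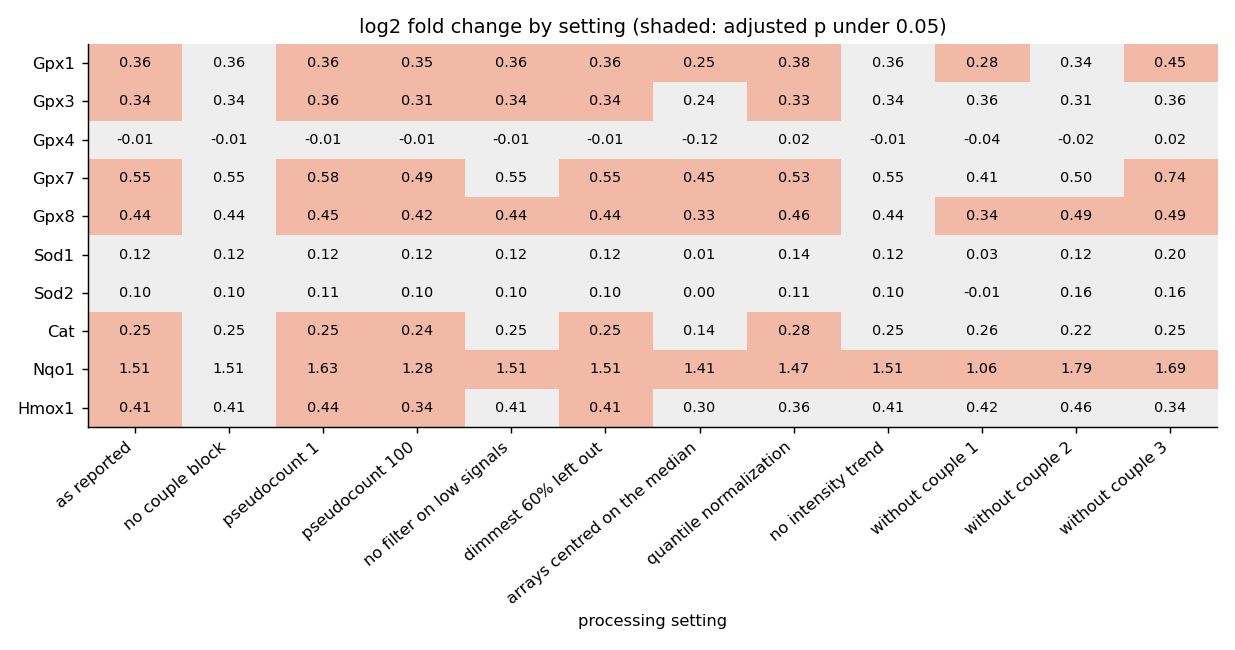
Log2 fold change (printed in each cell, corticosterone over vehicle) of the 10 probe sets tested under the reported processing and 11 alternatives (horizontal axis); shaded cells had an adjusted p under 0.05. The shaded cells are most frequent for Nqo1 and Gpx8, all cells of the fit with no couple block are unshaded, and the 7 genes that passed are above 0 in every column.

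Other genes of the same pathways were looked at as lists, 126 genes in all beside the 10, of which 92 were tested at their brightest probe set. Of these 16 rose, 4 fell and 72 did not pass, with a median log2 fold change of 0.06. Over all 9910 genes tested 11.7% rose and 7.77% fell, and the median was −0.002. With each array centred on its median 14 of the listed genes were higher and 10 lower, so the split of the calls depended on the scaling. The lists, too, were chosen with earlier results of these data known.

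Glutathione S-transferases join glutathione to electrophiles. Of 14 tested 6 rose and none fell, against 11.7% and 7.77% of all genes tested, and the median log2 fold change was 0.60. Gstm1 had signals of 482, 421 and 359 with corticosterone and 136, 116 and 154 with vehicle, which did not overlap (1.45, limma adjusted p = 8.8e-05). Gstt3 and the membrane-bound Mgst1 rose by 1.56 and 1.17, and Gstm7 by 0.88. With vehicle Gstt3 averaged 59.9, under the filter signal of 63.6, so it was tested only through its level with corticosterone (230.5), as was Mgst2, which did not pass. Both are among the 14 and in the median. The other 2, Gsta4 and Gstm5, named after their values were seen, rose by 0.73 and 0.77. Members of the Gstm family are similar in sequence, so their probe sets may share signal and their calls may not be separate. Gstp1, a bright member that did not pass, had a change of 0.08 (−0.03 with arrays centred on the median).

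Of 11 genes tested that make and recycle glutathione 1 rose, 1 fell and 9 did not pass (median −0.03), shares near those over all genes, and 1 was higher and 3 lower with arrays centred on the median. Glrx2 did not pass at its brightest probe set (−0.17, limma adjusted p = 0.088). Its second probe set did, as lower (−0.45, limma adjusted p = 0.014). Gss, which completes glutathione from its dipeptide precursor, had signals of 737, 801 and 607 with corticosterone and 417, 529 and 470.3 with vehicle, a change of 0.57 (limma adjusted p = 0.0041). Chac1, which degrades glutathione in the cytosol, fell to 272, 248 and 288 with corticosterone, against 513, 445 and 515 with vehicle (−0.80, limma adjusted p = 5.5e-04). Both sets of arrays stood apart without overlap.

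The transcript of Nrf2 itself rose. Nfe2l2 had signals of 2255, 1588 and 1225 with corticosterone and 698, 805 and 604 with vehicle. The groups did not overlap (log2 fold change 1.198 ± 0.12, SE; limma adjusted p = 1.0e-04), and the other 8 regulators tested did not pass. Of 15 other Nrf2 target genes tested 2 rose, none fell and 13 did not pass (median 0.08), a share near the 11.7% of all genes that rose. In either direction 6 had an unadjusted limma p under 0.05. The list leaves out Nqo1 and Hmox1, given above, and the glutathione S-transferases, so the share is that of this list alone. The epoxide hydrolase Ephx1 rose by 1.32 and the malic enzyme Me1 by 0.43. Of the 13 that did not pass, Abcc4, Pgd and the bright Tkt were higher in all 3 couples, and Txnrd1 alone was lower in all 3. The changes of Abcc4, Pgd and Tkt were 0.33, 0.21 and 0.16 (limma adjusted p = 0.071, 0.11 and 0.19). Taldo1, also bright, had −0.02. A further 5 targets and the Nrf2 inhibitor Keap1 were picked out after their values were seen, so these 5 do not stand for the list. The glutamate cysteine ligase subunits Gclc and Gclm had changes of −0.01 and 0.08, the cystine transporter Slc7a11 −0.13, and the thioredoxin reductase Txnrd1 −0.21. Sulfiredoxin, Srxn1, had 0.61 and passed only without couple 3 (limma adjusted p = 0.0019), where couple 3 was the one couple that went down. Keap1 had 0.02. Txnrd1 passed as lower with arrays centred on the median (limma adjusted p = 0.019), and under that centring Gclm and Keap1 turned to −0.03 and −0.08.

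**Figure D5:**
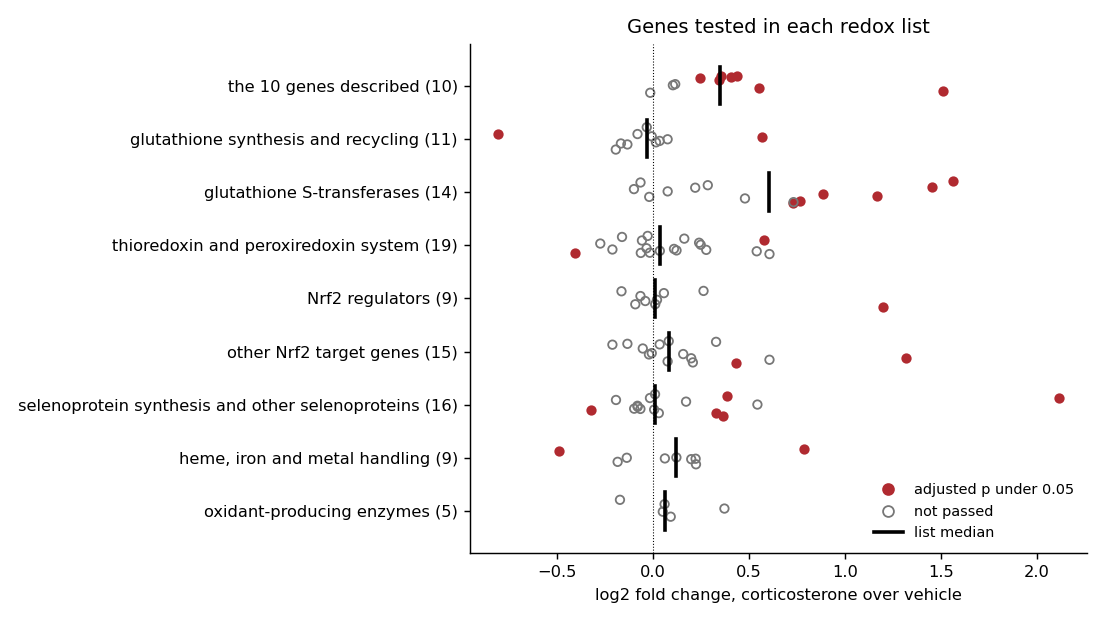
Log2 fold change (horizontal axis, corticosterone over vehicle) of the tested genes in each redox list, numbers of genes in brackets; filled red points had an adjusted p under 0.05, open points did not, and black bars are list medians. The 10 genes described and the glutathione S-transferases have medians of 0.35 and 0.60, and the medians of the other lists drawn lie between −0.03 and 0.12. The list of other peroxidases and dismutases, with 1 gene tested, is not drawn.

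In the thioredoxin and peroxiredoxin system, which reduces peroxides and protein disulfides beside glutathione, 1 of 19 genes rose, 1 fell and 17 did not pass (median 0.04). Msrb3, a methionine sulfoxide reductase, rose by 0.58 and the sestrin Sesn2 fell by 0.41 on the log2 scale. Txn1 and Prdx2, with bright probe sets, had changes of −0.06 and −0.03. Among 16 genes of selenoprotein synthesis and other selenoproteins 4 rose, 1 fell and 11 did not pass (median 0.01). For both lists the shares over all genes tested were 11.7% higher and 7.77% lower. Selenop, the selenium carrier secreted into plasma, had signals of 612, 967 and 381 with corticosterone and 64.2, 303 and 75.6 with vehicle (2.12 ± 0.19, SE; limma adjusted p = 4.2e-05). The groups did not overlap, and couple 2 was highest in both. Selenof, Selenos and Selenon, proteins of the endoplasmic reticulum, rose by 0.39, 0.37 and 0.33, though a second Selenon probe set did not pass (0.30, limma adjusted p = 0.27). Sephs1, named after its value was seen, fell (−0.32), and its 4 other tested probe sets ranged from −0.25 to 0.06.

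Of 9 genes of heme, iron and metal handling 1 rose, 1 fell and 7 did not pass (median 0.12). These shares were near the 11.7% and 7.77% over all genes tested. The metallothionein Mt2A rose by 0.79, and Tfrc, the receptor that brings in iron, fell by 0.49 on the log2 scale. Hmox2, the constitutive heme oxygenase, had a change of −0.18 (limma adjusted p = 0.17, and 0.047 as lower with arrays centred on the median). None of the 5 oxidant-producing enzymes tested passed in limma, with 1 at an unadjusted p under 0.05. Of this list 13 genes were on the array, and the rest lay under the filter on low signals and were not tested. Of the remaining peroxidases and dismutases only Ccs, the copper chaperone of Sod1, was tested, and it did not pass (0.13). The extracellular dismutase Sod3, under the filter on low signals and noticed after its values were seen, had 59.5, 71.4 and 61.7 with corticosterone and 15.6, 28.0 and 8.26 with vehicle. Of the vehicle arrays 2 lay at or below background, so no fold is given.

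Of the 20 calls in these lists, 7 held without the couple as a term: Nfe2l2, Gstm1, Gstt3, Gsta4, Gstm5, Chac1 and Tfrc. Without couple 2, 10 held, and Gss, Gstm7, Mgst1, Me1, Msrb3, Sesn2, Selenon, Selenos, Sephs1 and Mt2A did not (limma adjusted p from 0.0505 to 0.27). The rises of the cell markers Cd14 and Col1a2, described next, passed neither without the couple as a term nor without couple 2.

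Markers of the labelled cells were present. All 9 neural progenitor markers on the array (Nes, Sox2, Vim, Pax6, Hes1, Notch1, Fabp7, Prom1 and Emx2) were above background on all 6 arrays, with a summed signal of 63690.2 to 70614 with corticosterone and 57453 to 69477 with vehicle. Of these Nes and Emx2 rose (0.26 and 0.54, limma adjusted p = 0.019 and 0.0012), and neither passed without the couple as a term (limma adjusted p = 0.22 and 0.053). The rest did not pass. Prom1 had −0.31 and was lower in all 3 couples, and Sox2, Vim, Pax6, Hes1, Notch1 and Fabp7 had 0.02, 0.14, 0.08, 0.01, 0.19 and 0.003. Vim and Fabp7 made up most of the summed signal. Of 12 microglia and macrophage markers 5 were above background on all arrays, Itgam was at background on all, and the summed signal was 538 to 822 with corticosterone and 404 to 469 with vehicle. One of the 3 tested, Cd14, rose (1.09, limma adjusted p = 0.0043). Its signals were 205, 337 and 166 with corticosterone and 84.0, 86.0 and 106 with vehicle, a large part of the difference between the sums. Aif1 and Cd68 did not pass (0.13 and 0.03, limma adjusted p = 0.74 and 0.93). The rest of these markers lay under the filter on low signals. Of 10 meningeal, pericyte and fibroblast markers 3 were tested and 1, Col1a2, rose (0.99, limma adjusted p = 0.013). A second Col1a2 probe set did not pass (0.38, limma adjusted p = 0.25), and 1 vehicle array of the first lay below background. Their summed signal was 473, 2313 and 305 with corticosterone and 183, 1517 and 289 with vehicle, far highest in couple 2 in both groups. Couple 2 was also the one with the highest vehicle signal of Nqo1 and of Selenop. The part of these cells in the results was not tested, and in such bulk RNA more cells of a type and more RNA per cell cannot be told apart. The 8 endothelial markers summed to 271 to 413 with corticosterone and 196 to 283 with vehicle, and the 4 erythroid markers to 64.4 to 208 and 102 to 111, with none of the erythroid ones tested.

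Over the 6 arrays the genes whose log2 signal followed Nqo1 most closely, among 9909 others, were Naxd, Thbs3, Gal3st4, Wwtr1 and Il11ra1, with Pearson correlations of 0.993 to 0.998. These 6 points share 3 couples and 1 treatment, so the correlation is a description. Thbs3, Gal3st4 and Wwtr1 rose by 0.64, 0.70 and 0.64, while Naxd and Il11ra1 had changes of 0.29 and 0.57 and did not pass (limma adjusted p = 0.11 and 0.056). Like Nqo1, Thbs3 was high in couple 2 with vehicle, at 364 against 233 and 236 in couples 1 and 3, and it had 482, 501 and 351 with corticosterone.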

How the data were processed

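The authors deposited one MAS5 signal intensity per probe set and array on a linear scale, per the submitters' processing notes. The sources used here give neither its version nor detection calls. The trimmed mean (lowest and highest 2% left out) was 500.2 on every array, and medians ran from 124 to 134 with corticosterone and from 108 to 122 with vehicle. RNA was primed from the poly(A) tail, per the labels' protocols, which weights signals towards the 3′ end.

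From the deposited intensity, log2(signal + 28.6) was computed, the pseudocount being the 25th percentile of all values, so fold changes of low genes are understated. The dimmest 40% of probe sets were left out (signal under 63.6), and 18625 remained. Probe sets were named by the platform annotation where it gave 1 symbol (20826), not where it gave several (436) or none (9780), and 20758 matched the GRCr8 gene table by Entrez identifier. Background is the 95th percentile (22.8) of 27 unspiked bacterial control probe sets. The model was limma's (3.58.1, R 4.3.3; treatment and couple as terms, eBayes with intensity trend), two-sided, with Benjamini-Hochberg adjustment over all tested and a threshold of 0.05. The code was tested on simulated data. The number of arrays limits the precision.

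The series design text states the couples and the titles number them. Deviations from group means correlated by 0.57, 0.52 and 0.35 between samples of one couple.

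The members and lists were chosen with earlier results of these data known. Named were all members and, per list, up to 4 genes that passed with the largest change and up to 2 bright ones that did not; exceptions are stated. Where genes were counted, the brightest probe set stood for a gene. Alternatives were the fit without the couple, pseudocounts of 1 and 100, no filter or the dimmest 60% left out, median centring, quantile normalization, no trend, each couple left out, and the mean of a gene's probe sets.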

Additional observations from a re-analysis of the deposited data

How the results depend on the processing

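The 7 genes that passed kept a positive change under all 11 alternatives fitted to single probe sets, and how many passed depended on the setting. As reported, 7 of the 10 member probe sets and 7 of the 10 genes passed. The number was 7 with either pseudocount, with the dimmest 60% left out and with the mean of a gene's probe sets, and 6 with quantile normalization, where Hmox1 had a limma adjusted p of 0.056. It was 4 without the filter on low signals, 4 with each array centred on its median and 1 without the intensity trend. Leaving out the filter adds probe sets to the adjustment and also changed the unadjusted p-values. For Nqo1 the unadjusted limma p went from 2.4e-05 to 3.4e-04. Without the couple as a block the number that passed was 0 in limma, with 6 at an unadjusted p under 0.05. Leaving out a couple gave 2 to 4. The causes were not tested, and the fits with a couple left out also had fewer samples.

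Over all probe sets 2953 passed, and 417 without the block, 1862 without the filter, 1262 without the trend and 1192 to 2807 with a couple left out. Of the calls 59.3% were higher, 30.4% with median centring, 86.8% without the block and 76.1% without the trend. In the pathway lists 20 genes passed (16 higher, 4 lower), 24 with median centring (14 higher, 10 lower), 7 without the block, 11 without the trend and 10 to 23 with a couple left out. Among genes that did not pass, the sign turned with median centring for Sod2 (-0.0017), Gclm (-0.029), Gstp1 (-0.029) and Keap1 (-0.084), and with quantile normalization for Gpx4 (0.020). With a couple left out Sod2 ranged from -0.0059 (without couple 1) to 0.16, Gpx4 from -0.038 to 0.019 (without couple 3), Gclc from -0.082 to 0.075, Slc7a11 from -0.32 to 0.048 and Keap1 from -0.0037 to 0.057, the turned signs of Gclc, Slc7a11 and Keap1 being those without couple 2. Gpx2, the second Gpx4 probe set and other probe sets near background are limited by their signal.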
